A study of Mus musculus with 18 samples.

Results

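Inguinal subcutaneous white adipose tissue (sWAT) and mesenteric white adipose tissue (mWAT) were compared in cold-exposed mice on 6 of the 18 arrays of the series, 3 for each depot. An array was placed in sWAT or in mWAT at 6°C by its title, and no measured value entered this choice. Both groups came from female Sv129 mice that were 10 wk old and had been caged singly at 6°C for 10 days, and the labels name no altered allele and no drug in any of them. The remaining arrays hold sWAT and mWAT at 28°C and brown adipose tissue (BAT) at both temperatures. RNA was measured on Affymetrix mouse arrays, and each value below is the log2 of the deposited intensity of 1 probe set, so that a difference of 1 is a 2-fold difference. A gene is given by its brightest probe set, differences are sWAT minus mWAT ± SE, and a call means an adjusted p under 0.01 in a limma fit of all 18 arrays. The methods describe the arrays as biological replicates, no label pairs the depots of a mouse, and the p-values measure the spread between these arrays. A, B and C name the arrays of a group and carry no order.

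The inguinal depot lies under the skin of the hind limb, and in female mice it surrounds the ducts of a mammary gland. The mesenteric depot lies between the sheets that carry vessels, nerves and lymphatics to the gut, under a layer of mesothelial cells. Cold makes sympathetic nerves release noradrenaline onto fat, and some adipocytes of white depots then acquire brown features and are called brite or beige. Such cells hold many mitochondria that burn fatty acids and carry UCP1, a protein that lets protons back across the inner membrane so that the energy is released as heat.

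The tissue and temperature listed among the other characteristics contradict the titles and call all 3 sWAT arrays BAT. The arrays of both depots were therefore first compared with each other. No BAT array entered this comparison, so its correlations and adiponectin values cannot tell sWAT from BAT. Over all probe sets the sWAT arrays correlated at 0.986 to 0.988 with each other, the mWAT arrays at 0.951 to 0.982, and sWAT with mWAT arrays at 0.941 to 0.962. Markers of adipocytes were bright in all 6 arrays, and Adipoq, which encodes adiponectin, had log2 intensities of 13.68, 13.77 and 13.74 in sWAT and 13.50, 13.53 and 13.71 in mWAT. Array C of mWAT stood apart, and it correlated at 0.991 with mWAT array C at 28°C but at 0.965 and 0.951 with mWAT A and B at 6°C. The mean log2 intensity of 28 T cell and natural killer cell genes was 10.2, 10.1 and 6.36 in mWAT A, B and C, against 8.68 to 9.43 in the sWAT arrays. A list of 26 pancreas genes averaged 12.4 in mWAT B and at most 6.03 in the other arrays, and a list of 23 skeletal muscle genes averaged 10.7 in sWAT B and 6.19 to 6.38 in the mWAT arrays. In bulk tissue, fewer cells of a type and less RNA per cell cannot be told apart. The files carry no detection calls. As a guide to empty signal, Y-linked genes, which female mice lack, were read, and 5 of the 6 measured lay at 2.86 to 5.72 across the arrays, called the Y-linked range below, while Sry alone lay at 6.76 to 7.33. The exact size of a difference is not measured where the lower depot lies in the Y-linked range.

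Of 45037 probe sets tested, 3355 (7.45%) were called between the depots at 6°C, 1687 higher (3.75%) and 1668 lower (3.70%) in sWAT. At the level of genes, 941 of 18193 were higher (5.17%) and 911 lower (5.01%) in sWAT, and the median difference over all genes was 0.04. The 3 sWAT arrays all lay above the 3 mWAT arrays in 3335 genes (18.3%) and all below them in 2382 (13.1%). The number of genes higher in sWAT was 513 without mWAT array A and 1019 without mWAT array C, and the 6 arrays fitted alone gave 272 higher and 389 lower. In probe sets the total was 2092 without sWAT array A and 2184 without mWAT array A. These shares are the background against which the gene lists below are read.

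Among the 10 largest differences toward sWAT were Foxa1, a pioneer transcription factor of ductal epithelium, the milk protein gene Csn3 and the limb homeobox gene Shox2. Foxa1 read 11.83, 11.37 and 11.40 in the sWAT arrays and 3.35, 4.17 and 3.21 in the mWAT arrays, a difference of 7.96 ± 0.54 (adjusted p = 3.4e-07). The groups were far apart, and every mWAT array lay within the Y-linked range. At the other end stood Rims1, an organizer of the presynaptic active zone, with 4.16, 4.22 and 3.67 in sWAT and 12.03, 11.57 and 12.66 in mWAT (-8.07 ± 0.77, adjusted p = 6.8e-06). The granule protein gene Scg2 (-7.92 ± 0.58) and the neuropeptide gene Vip (-7.68 ± 0.53) followed. In 19 of the 20 largest differences the mean of the lower depot was at most 5.72, and in the other 1 it was above this but below the highest value of Sry.

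Most brown and beige thermogenesis genes were higher in sWAT at 6°C. Of 33 measured members 21 were higher in sWAT, none was lower, and the median difference over the list was 1.25. The list holds genes that the study picked from these same arrays as raised by cold in sWAT, among them Slc27a2, Letm1, Nrg4 and Ffar4. Its count is therefore not independent of these data. Ucp1 read 13.77, 13.68 and 13.95 in the sWAT arrays and 9.57, 10.15 and 8.76 in the mWAT arrays. The 3 sWAT arrays were nearly equal, the mWAT arrays were spread, and the groups did not overlap. The difference was 4.30 ± 0.29, or 19.7-fold (adjusted p = 3.7e-07). Cidea, a lipid droplet protein abundant in brown adipocytes, read 13.43, 13.27 and 13.52 in sWAT and 11.07, 11.30 and 11.50 in mWAT (2.12 ± 0.24, adjusted p = 3.6e-05). Its mWAT arrays were tight, and again no mWAT array reached a sWAT array.

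Of the same list, 4 genes that handle fatty acids are given with their values. Slc27a2, a very long chain acyl-CoA synthetase that takes up fatty acids, read 9.36, 8.59 and 9.42 in sWAT and 4.18, 4.01 and 5.33 in mWAT (4.61 ± 0.34, adjusted p = 7.3e-07). Its mWAT values lay in the Y-linked range. Fabp3, a fatty acid-binding protein of heart and brown fat, read 13.40, 12.52 and 13.57 in sWAT and 9.75, 9.98 and 10.07 in mWAT (3.23 ± 0.30, adjusted p = 6.4e-06). sWAT array B was the lowest of its group for both, and it still stood well above every mWAT array. Elovl3, which lengthens saturated acyl chains in brown fat under cold, read 11.20, 10.34 and 11.46 in sWAT and 7.83, 6.85 and 7.80 in mWAT (3.51 ± 0.62, adjusted p = 0.0014). Plin5, which tethers lipid droplets to mitochondria, read 11.28, 11.27 and 11.52 in sWAT and 9.03, 8.99 and 9.28 in mWAT (2.26 ± 0.20, adjusted p = 4.6e-06). Neither depot's arrays came near the other's.

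Channels, receptors, secreted factors and regulators of the same list were higher as well. Otop1, a proton channel abundant in brown fat, differed by 2.48 ± 0.27, and Pm20d1, a secreted enzyme that makes N-acyl amino acids, by 2.38 ± 0.25. The fatty acid receptor Ffar4 differed by 1.52 ± 0.21 and the mitochondrial ion transport gene Letm1 by 1.13 ± 0.16. Nrg4, a secreted ligand of ERBB receptors, read 12.47, 12.62 and 12.66 in sWAT and 11.72, 11.62 and 11.72 in mWAT (0.89 ± 0.17, adjusted p = 0.0029). Its difference was small but larger than the spread within either depot. Ppara, the fatty acid-sensing nuclear receptor that drives oxidation genes, differed by 1.69 ± 0.27. Of the 12 members that missed the threshold, Ppargc1a, the coactivator of mitochondrial biogenesis, read 9.46, 9.33 and 9.23 in sWAT and 8.95, 8.79 and 9.99 in mWAT (0.10 ± 0.40, adjusted p = 0.93). Dio2, which activates thyroid hormone, read 10.96, 9.17 and 10.54 in sWAT and 8.79, 9.58 and 10.64 in mWAT (0.56 ± 0.45, adjusted p = 0.53). The depots overlapped for both. Prdm16, a determinant of brown fate, had a difference of 0.77 ± 0.23 (adjusted p = 0.034). Its arrays did not overlap between the depots, and 1 of its 4 probe sets was called higher. Bmp8b, a secreted enhancer of the brown fat response, had a difference of 0.93 ± 0.29 (adjusted p = 0.042). The dimmer of the 2 probe sets of Bmp8b was called higher, as was their mean (1.34, adjusted p = 0.0019). The count of 21 fell to 13 when the 6 arrays were fitted alone, and the call on Nrg4 was lost without sWAT B, sWAT C, mWAT A or mWAT B.

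**Figure D1:**
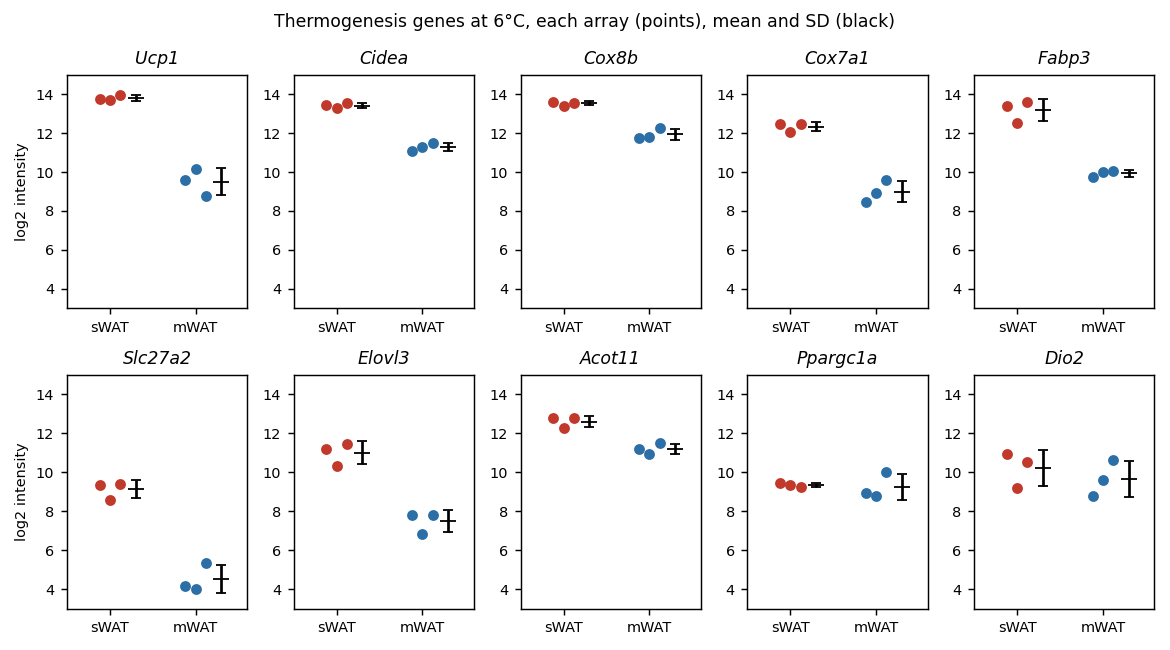
Log2 intensity (vertical axis) of 10 thermogenesis genes in each sWAT (red) and mWAT (blue) array at 6°C, with arrays A, B and C from left to right in each group and the mean and SD in black. In 8 genes every sWAT array lies above every mWAT array, by 4.30 on average for Ucp1, while the arrays of Ppargc1a and Dio2 overlap.

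The promoters of 3 of these genes are shown because their transcripts differed by over 3 on the log2 scale and because 2 of them hold the letters of a nuclear receptor half-site, the kind of element that PPAR, retinoid and thyroid hormone receptors recognize. The sequences are from RefSeq on GRCm38.p6, on the strand of the gene, and run from 250 bases before the annotated start to 50 bases after it. Capitals mark AGGTCA or its reverse complement TGACCT, and no other motif was searched.
Ucp1, chr8:83290098-83290397: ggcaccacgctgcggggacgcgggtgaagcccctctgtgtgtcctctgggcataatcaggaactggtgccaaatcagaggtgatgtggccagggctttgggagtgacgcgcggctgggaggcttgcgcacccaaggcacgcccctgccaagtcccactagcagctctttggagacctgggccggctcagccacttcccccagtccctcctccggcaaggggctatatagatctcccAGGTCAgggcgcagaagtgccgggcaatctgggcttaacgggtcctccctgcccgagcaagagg
Slc27a2, chr2:126552774-126553073: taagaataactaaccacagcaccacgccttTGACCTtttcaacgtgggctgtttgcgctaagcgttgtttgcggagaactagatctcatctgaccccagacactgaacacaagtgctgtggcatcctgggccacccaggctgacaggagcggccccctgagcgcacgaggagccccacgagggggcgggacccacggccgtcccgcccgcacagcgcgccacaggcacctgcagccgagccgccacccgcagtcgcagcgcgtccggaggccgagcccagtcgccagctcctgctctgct
Cox7a1, chr7:30183921-30184220: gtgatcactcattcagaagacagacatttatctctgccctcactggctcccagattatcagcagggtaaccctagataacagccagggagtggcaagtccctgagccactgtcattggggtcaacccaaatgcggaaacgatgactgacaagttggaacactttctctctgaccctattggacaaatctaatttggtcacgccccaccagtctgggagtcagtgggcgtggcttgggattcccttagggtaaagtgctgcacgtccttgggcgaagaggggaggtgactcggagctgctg
The Ucp1 window holds the letters 14 bases before the start, the Slc27a2 window holds them 220 bases before the start on the opposite strand, and the Cox7a1 window does not hold them. Of the 21 thermogenesis genes higher in sWAT, 16 have a window and 5 of these hold the letters on either strand (Ucp1, Plin5, Slc27a2, Nrg4 and Cpn2). Of all 26 measured thermogenesis genes with a window the same 5 hold them (19.2%), and across 27025 genes with a window 18.1% do. A match is a run of letters, and binding was not measured here.

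Cytochrome c oxidase, the last complex of the respiratory chain, has subunits that come in tissue-specific forms, and the depots differed in the form of muscle and brown fat. Cox7a1 read 12.45, 12.05 and 12.44 in sWAT and 8.47, 8.93 and 9.57 in mWAT (3.32 ± 0.25, adjusted p = 7.3e-07). Its widely expressed counterpart Cox7a2 read 13.97, 14.08 and 14.07 in sWAT and 13.89, 13.79 and 14.10 in mWAT (0.11 ± 0.10, adjusted p = 0.57). The arrays of Cox7a1 were fully separated and those of Cox7a2 overlapped. Cox8b read 13.60, 13.40 and 13.56 in sWAT and 11.74, 11.81 and 12.24 in mWAT (1.59 ± 0.18, adjusted p = 4.2e-05), whereas its counterpart Cox8a had a difference of 0.20 ± 0.11 (adjusted p = 0.27). The same held for lipid droplet proteins, where Cidea was higher and Cidec, the form of white adipocytes, had a difference of 0.22 ± 0.11 (adjusted p = 0.22). Gys2, the glycogen synthase of liver, differed by 1.48 ± 0.23 (adjusted p = 0.00051), and Gys1, that of muscle, missed the threshold at 0.85 ± 0.22 (adjusted p = 0.016). Gys1 passed it with a variance trend (adjusted p = 0.00783), with its probe sets averaged (adjusted p = 0.00765) and without both mWAT arrays C (adjusted p = 0.00495). One subunit ran the other way: Cox6b2, known from testis, was lower in sWAT at 8.80, 8.80 and 8.79, against 10.07, 9.99 and 10.89 in mWAT (-1.52 ± 0.28, adjusted p = 0.0018). Whether the 2 forms of a pair differ in their response was not tested.

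Of 21 measured genes of mitochondrial fatty acid oxidation 15 were higher in sWAT and none was lower, with a median difference of 0.73. Hadha, a subunit of the trifunctional protein that cuts long acyl chains, read 12.68, 12.43 and 12.53 in sWAT and 11.17, 11.36 and 11.65 in mWAT (1.15 ± 0.17, adjusted p = 0.00038). Acadvl, the very long chain acyl-CoA dehydrogenase, read 13.63, 13.47 and 13.56 in sWAT and 12.40, 12.42 and 12.67 in mWAT (1.06 ± 0.14, adjusted p = 0.00016). The arrays of the depots were apart in both genes, by about 2-fold. Cpt2, which reloads acyl groups onto CoA inside the mitochondrion, differed by 1.01 ± 0.14, the medium chain dehydrogenase Acadm by 0.94 ± 0.13, and Etfdh, which passes their electrons to ubiquinone, by 0.92 ± 0.13. Cpt1a, the liver form of the entry enzyme, had the lowest value of the list at -0.53 ± 0.22 (adjusted p = 0.15). The count was 9 without mWAT array A, and 2 when the 6 arrays were fitted alone.

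The citrate cycle and pyruvate dehydrogenase followed, with 13 of 26 genes higher in sWAT, none lower and a median of 0.46. Ogdh, a subunit of oxoglutarate dehydrogenase, read 12.67, 12.44 and 12.47 in sWAT and 11.46, 11.52 and 11.67 in mWAT (0.98 ± 0.13, adjusted p = 0.00011). Its groups were separated, and so were those of Idh3a, a subunit of isocitrate dehydrogenase (0.99 ± 0.15), and of Pdhx, which anchors a subunit of the pyruvate dehydrogenase complex (1.23 ± 0.20). Citrate synthase itself, Cs, had a difference of 0.26 ± 0.10 (adjusted p = 0.097), with 1 of its 3 probe sets called higher, and passed with its probe sets averaged (0.46, adjusted p = 0.0023) or with a variance trend (adjusted p = 0.0094). Pdk4, the kinase that switches pyruvate dehydrogenase off, read 13.79, 13.87 and 13.83 in sWAT and 12.78, 13.07 and 13.34 in mWAT (0.76 ± 0.14, adjusted p = 0.0016). Without mWAT array A 7 genes of the list were called, and none with the 6 arrays alone.

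The respiratory chain was called unevenly. Complexes II and III had 6 of 13 genes higher in sWAT, among them Uqcrc1 (0.92 ± 0.13) and the membrane anchor Sdhd of succinate dehydrogenase (0.81 ± 0.12). Complex I had 5 of 35 higher, led by Ndufa10 (0.86 ± 0.12). In complex IV with cytochrome c, 3 of 16 were higher, namely Cox7a1, Cox8b and the electron carrier gene Cycs (0.75 ± 0.15, a call lost without sWAT A, sWAT C, mWAT A or mWAT B). None of 16 ATP synthase genes was called in limma, where 1 passed an adjusted p of 0.05 and 8 an unadjusted p of 0.05, and their median difference was 0.19. Of 50 mitochondrial ribosome genes 11 were higher and none lower, with a median of 0.38, and 49 of the 50 differences were positive. No gene of any of these lists but Cox6b2 was lower. The counts were 2 for complexes II and III without mWAT A, 1 for the mitochondrial ribosome without sWAT A, mWAT A or mWAT B, and for complex I 8 without mWAT C and 3 without any other array, and with the 6 arrays alone they were 0 for complexes I, II and III and the mitochondrial ribosome.

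Other oxidative routes gave smaller counts in the same direction. Branched-chain amino acid breakdown had 7 of 22 genes higher, led by Bckdha, a subunit of the branched-chain ketoacid dehydrogenase (1.09 ± 0.18), and peroxisomal oxidation 4 of 20. Ubiquinone synthesis had 3 of 12 higher, led by Coq9 (0.91 ± 0.14). None of the 3 lists held a lower gene. No call was made in them when the 6 arrays were fitted alone, and the counts were 3 for branched-chain amino acids without mWAT A or mWAT B, 0 for peroxisomes without sWAT A, sWAT B or mWAT A, and for ubiquinone 1 without sWAT A, mWAT A or mWAT B and 6 without mWAT C.

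**Figure D2:**
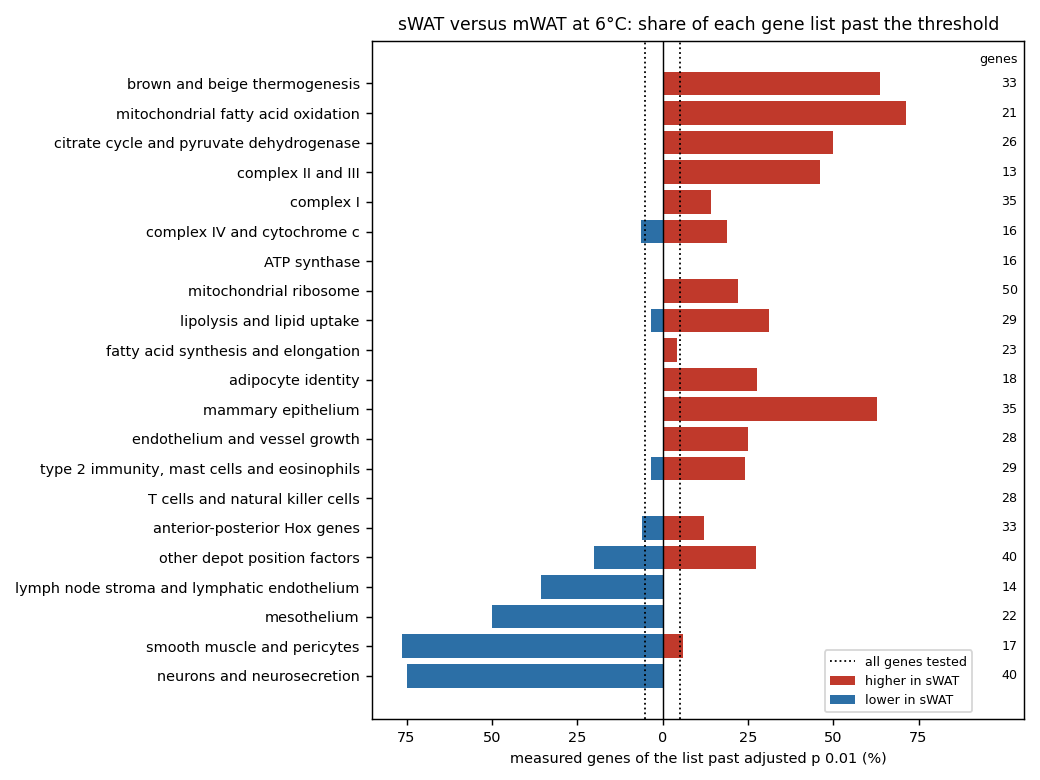
Percent of the measured genes of 21 lists that were higher (red, right) or lower (blue, left) in sWAT than in mWAT at 6°C at an adjusted p under 0.01, with the number of genes measured at the right edge and dotted lines at the shares of all genes (5.17% and 5.01%). Fatty acid oxidation, thermogenesis and mammary epithelium extend furthest to the right, and smooth muscle and neurons furthest to the left.

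Fuel supply was described by the genes of lipid release and uptake, of triglyceride synthesis and of glucose use. In the first of these lists 9 of 29 genes were higher and 1 was lower. Gpihbp1, the capillary anchor of lipoprotein lipase, read 11.82, 12.20 and 11.93 in sWAT and 10.01, 10.32 and 10.27 in mWAT (1.79 ± 0.21, adjusted p = 4.5e-05). Vldlr, a lipoprotein receptor, read 11.66, 11.69 and 11.73 in sWAT and 9.76, 10.11 and 10.32 in mWAT (1.63 ± 0.17, adjusted p = 1.8e-05), and all 6 of its probe sets were called higher. Both genes were separated between the depots by over 1 on the log2 scale. The one lower gene was Acsl6, an acyl-CoA synthetase of the nervous system (-3.72 ± 0.82, adjusted p = 0.0065), a call lost without any of sWAT A, sWAT C and the 3 mWAT arrays. Triglyceride synthesis and lipid droplets had 7 of 25 higher and none lower, among them the glycerol channel gene Aqp7 (1.70 ± 0.26). For glucose uptake, glycolysis and glycogen, 6 of 34 were higher, among them Fbp2, the muscle form of fructose bisphosphatase (2.40 ± 0.26), the fructose transporter gene Slc2a5 (1.48 ± 0.26) and Aldoc, an aldolase (1.56 ± 0.23). Of the 2 lower, the neuronal enolase Eno2 read 9.50, 9.97 and 9.98 in sWAT and 11.40, 11.29 and 11.89 in mWAT (-1.71 ± 0.23, adjusted p = 0.00017). Fatty acid synthesis and elongation had a single called gene of 23, Elovl3. With the 6 arrays alone, 5 genes of lipid release and uptake, 2 of triglyceride synthesis and 2 of glucose use were higher, and 4 of triglyceride synthesis were without sWAT A or mWAT A. The lower genes of glucose use numbered 3 without mWAT C and 1 without any other array.

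Most genes that define adipocytes in either depot were not called, although all 18 measured differences were positive. Of 18 measured, 5 were higher in sWAT and none was lower, the median difference was 0.31, and the list averaged 13.2 in each sWAT array and 12.5 to 12.8 in the mWAT arrays. The 5 were Aqp7, Pparg, the master regulator of adipocyte differentiation (0.84 ± 0.14), the lipases Pnpla2 (0.79 ± 0.14) and Lipe (0.73 ± 0.16), and the glycerol phosphate dehydrogenase Gpd1 (0.70 ± 0.15). At an adjusted p of 0.05, 7 genes of the list were higher. In 13 of the 18 every sWAT array lay above every mWAT array, which held for 18.3% of all genes. Lep, which encodes leptin, read 12.33, 11.34 and 12.36 in sWAT and 10.47, 8.93 and 11.19 in mWAT. Its values were spread over more than 2 on the log2 scale within mWAT, and the difference of 1.82 ± 0.58 missed the threshold (adjusted p = 0.053). Of 23 proposed markers of beige and white adipocytes 6 were higher and 1 lower, with a median of 0.14 and with 12 positive and 11 negative differences. The lower one, Tcf21, is known from white fat precursors and from visceral mesoderm (-5.25 ± 0.43). Cited1, a transcriptional coregulator, read 9.29, 8.49 and 8.17 in sWAT and 4.66, 4.31 and 5.03 in mWAT (3.98 ± 0.44, adjusted p = 2.6e-05). At 28°C the difference of Cited1 was larger, at 5.28 ± 0.44 (adjusted p = 1.6e-06), and its sWAT mean was 9.99, beside 8.65 at 6°C. Pank1, an enzyme of CoA synthesis, differed by 2.19 ± 0.24. None of the 5 adipocyte calls held when the 6 arrays were fitted alone. The call on Lipe was lost without sWAT A, sWAT B, mWAT A or mWAT C and that on Gpd1 without any array but mWAT C, which left 3 calls without sWAT A, sWAT B or mWAT A.

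Heat can also come from pumping calcium or cycling creatine. Of 14 measured genes of these routes, 3 were lower in sWAT and 1 was higher. Ckb, the creatine kinase of brain and brown fat, read 10.51, 10.09 and 10.17 in sWAT and 12.96, 12.87 and 13.45 in mWAT (-2.84 ± 0.26, adjusted p = 5.4e-06). Every mWAT array lay more than 2 on the log2 scale above every sWAT array. At 28°C the difference of Ckb was -2.83 ± 0.26 (adjusted p = 4.5e-06). The calcium release channels Ryr2 (-4.19 ± 0.39) and Ryr3 (-2.90 ± 0.25) were lower too, and Alpl, a phosphatase linked to creatine cycling in mice, was higher (1.57 ± 0.20). The ryanodine receptors are also expressed in smooth muscle and neurons, and Ckb in brain. The marker lists of smooth muscle and neurons moved the same way and are given below. The part of these cells in the 3 lower genes was not tested.

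The same depots at 28°C show which of these gaps were also called without cold. There 2631 probe sets (5.84%) were called, 966 higher (2.14%) and 1665 lower (3.70%) in sWAT, and 555 genes were higher (3.05%) and 876 lower (4.82%). Of the 941 genes higher in sWAT at 6°C, 371 (39.4%) were higher at 28°C as well, which is 66.8% of the 555. Of the 911 lower at 6°C, 704 (77.3%) were lower at 28°C, which is 80.4% of the 876. The 1 gene called in opposite directions was Acot11, an acyl-CoA thioesterase of brown fat.

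Of the 33 thermogenesis genes only Ucp1, Cidea and Pm20d1 were called higher in sWAT at 28°C, Acot11 was called lower, and the median difference was 0.34. Some others were positive but missed the threshold, with Cox8b at 0.68 ± 0.18 (adjusted p = 0.028) and Plin5 at 0.73 ± 0.20 (adjusted p = 0.033). Nrg4 stood at 0.63 ± 0.17 (adjusted p = 0.033) and Slc27a2 at 1.17 ± 0.34 (adjusted p = 0.043). Among those negative and not called were Ppargc1a (-1.21 ± 0.40), Dio2 (-0.84 ± 0.45) and Ppara (-0.78 ± 0.27). Ucp1 averaged 10.15 in sWAT and 6.48 in mWAT at 28°C, a difference of 3.68 ± 0.29 beside 4.30 ± 0.29 at 6°C, and the difference between these was 0.63 ± 0.42 (adjusted p = 1). Acot11 read 12.76, 12.28 and 12.76 in sWAT and 11.18, 10.94 and 11.48 in mWAT at 6°C (1.40 ± 0.20, adjusted p = 0.00026), whereas at 28°C it averaged 9.89 in sWAT and 10.92 in mWAT (-1.03 ± 0.20, adjusted p = 0.003). Cox7a1 averaged 9.13 in sWAT and 8.56 in mWAT at 28°C (0.57 ± 0.25, adjusted p = 0.19). In the test of the difference itself, no probe set reached the threshold of 0.01 in limma, although 2287 had an unadjusted p under 0.05. Of the 5 with an adjusted p under 0.05, 4 name a gene, and all 4 were larger at 6°C: Acot11 by 2.43 ± 0.28 (adjusted p = 0.018), Cox7a1 by 2.75 ± 0.35 (adjusted p = 0.018), Slc27a2 by 3.45 ± 0.48 (adjusted p = 0.037) and 1 of 3 probe sets of Acaa2, a thiolase of fatty acid oxidation, by 1.67 ± 0.23 (adjusted p = 0.037). Fabp3, with 2.91 ± 0.43, lay just outside (adjusted p = 0.053). Without sWAT array B at 6°C 10 probe sets passed the threshold and without mWAT array C at 6°C 4, all larger at 6°C. Leaving out sWAT A or sWAT C at 28°C gave 1 and leaving out mWAT B at 28°C gave 2.

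**Figure D3:**
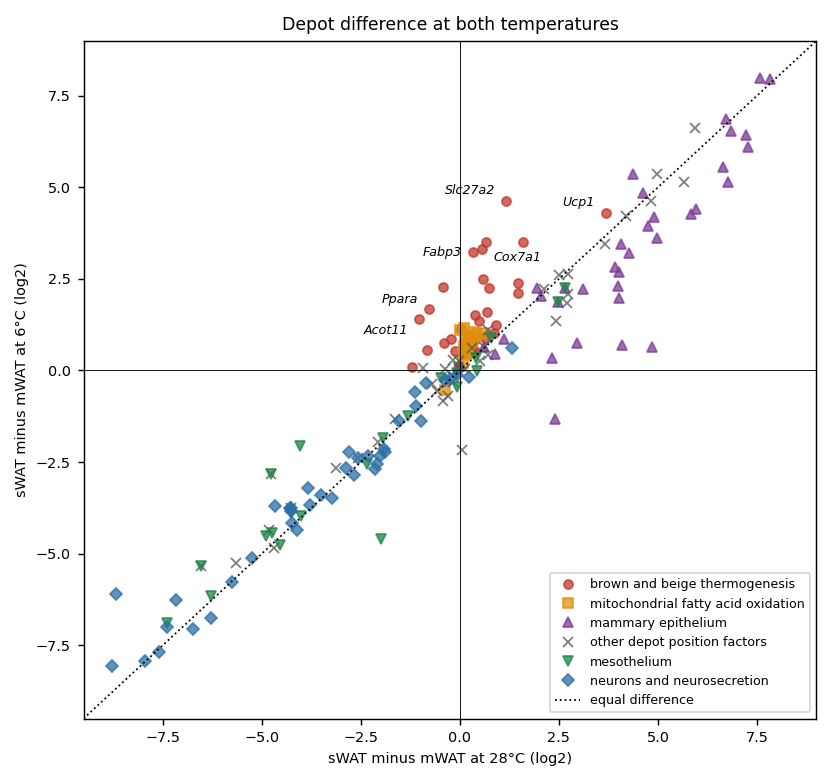
Log2 difference of sWAT and mWAT at 28°C (horizontal axis) and at 6°C (vertical axis) for each measured gene of 6 lists, with a dotted line of equal difference. Most genes of neurons, mesothelium and position factors lie near the line, those of mammary epithelium near or below it, and many thermogenesis genes lie above it, for example Cox7a1 at 0.57 and 3.32.

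Transcription factors that record where a tissue formed along the body were called in both directions, and all of those called but Hoxa10 were called in the same direction at 28°C. Hox genes follow each other in 4 clusters, and the later members of a cluster mark more posterior positions. Of 33 Hox genes measured, 4 were higher (12.1%) and 2 lower (6.06%) in sWAT, beside 5.17% and 5.01% of all genes. The other 27 were not called, and the median difference was -0.08, with 14 positive and 19 negative differences. With the 6 arrays alone 2 Hox genes were higher and 1 was lower. Hoxc10 read 9.69, 9.64 and 9.57 in sWAT and 6.20, 3.74 and 3.74 in mWAT (5.07 ± 0.53, adjusted p = 1.6e-05), Hoxa9 differed by 3.83 ± 0.51 and Hoxc9 by 2.44 ± 0.28. Hoxa10 read 10.00, 9.61 and 10.04 in sWAT and 7.71, 3.59 and 3.67 in mWAT (4.89 ± 0.98, adjusted p = 0.0036). In mWAT array A these posterior genes read higher than in B and C, and still below every sWAT array. The lower genes were the more anterior Hoxb5, with 8.98, 8.88 and 8.71 in sWAT and 10.56, 10.80 and 11.62 in mWAT (-2.14 ± 0.28, adjusted p = 0.00011), and Hoxa5 (-1.25 ± 0.29, adjusted p = 0.0095). The calls on Hoxa10 and Hoxa5 were each lost without any of the 3 sWAT arrays, mWAT B or mWAT C.

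Of 40 other position factors 11 were higher and 8 lower in sWAT. Shox2, a homeobox gene of the proximal limb, read 10.14, 10.19 and 10.31 in sWAT and 3.09, 3.92 and 3.79 in mWAT (6.61 ± 0.19, adjusted p = 6.9e-11, the smallest of all genes). Its sWAT arrays were nearly equal, and its mWAT arrays lay in the Y-linked range. Limb and trunk factors filled the rest of this group, with Emx2 (5.36 ± 0.49), Irx2 (5.15 ± 0.33), Irx1 (4.62 ± 0.36), Tbx15 (4.21 ± 0.28), Tbx18 (3.46 ± 0.42), Lmx1b, En1, Twist1, Tbx5 and Irx3. Genes of the splanchnic mesoderm, the layer around the gut, made up most of the lower group. Wt1, a factor of mesothelium and visceral fat, read 4.37, 5.19 and 3.74 in sWAT and 9.92, 8.81 and 10.61 in mWAT (-5.35 ± 0.55, adjusted p = 1.5e-05). Tcf21 (-5.25 ± 0.43), Foxf1 (-4.83 ± 0.44), Foxf2 (-4.36 ± 0.44), Isl1 (-3.75 ± 0.38), Hand2 (-2.66 ± 0.34), Hand1 (-2.39 ± 0.30) and Gata5 (-1.94 ± 0.37) were also lower. At 28°C 12 of the 40 were higher and 10 lower. The call on Irx3 (1.35 ± 0.31) was lost without any 1 of the 6 arrays, and that on Gata5 without sWAT A or sWAT B.

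**Figure D4:**
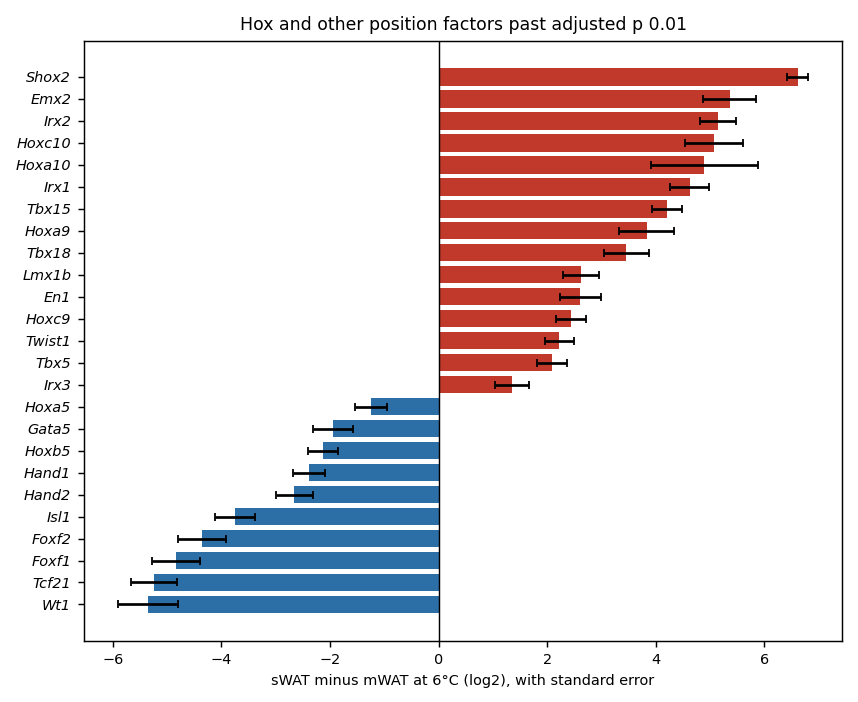
Log2 difference of sWAT and mWAT at 6°C (horizontal axis) with its standard error for the 25 Hox and other position factors past an adjusted p of 0.01, red where sWAT was higher and blue where it was lower. Shox2 (6.61) is at the top and Wt1 (-5.35) at the bottom.

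Genes of mammary epithelium were higher in sWAT. Of 35 measured 22 were higher and none was lower, with a median of 2.82, and the list averaged 9.49 to 9.69 in the sWAT arrays and 5.88 to 6.99 in the mWAT arrays. Csn3, the kappa-casein of milk, read 12.91, 12.79 and 12.79 in sWAT and 4.24, 5.83 and 4.50 in mWAT (7.97 ± 1.29, adjusted p = 0.00073). Another milk protein gene, Csn2 for beta-casein, had the only negative difference of the list (-1.31) and was not called. Tfap2c, a transcription factor of luminal cells, differed by 6.53 ± 0.60, Elf5, which directs alveolar cells, by 5.54 ± 0.48, and Slc5a5, the iodide transporter, by 5.37 ± 0.67. Basal cells of the duct were represented by Krt5 (3.47 ± 0.24) and Krt14 (3.22 ± 0.42), and all epithelia by Epcam (4.20 ± 0.41). Both layers of the duct thus read higher in sWAT, and for Tfap2c and Elf5 all mWAT arrays lay within the Y-linked range, and for Csn3 all but mWAT B. Krt18, a luminal keratin also made by mesothelium, read 13.49, 13.53 and 13.38 in sWAT and 10.62, 11.58 and 11.46 in mWAT and missed the threshold (2.24 ± 0.73, adjusted p = 0.055), which it passed with the 6 arrays alone (adjusted p = 0.0049). Without mWAT A the list had 18 genes higher. At 28°C 24 of the 35 were higher.

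Several nuclear receptor genes and hormone enzymes differed with the depot. Pgr, the progesterone receptor, read 10.99, 11.18 and 11.15 in sWAT and 7.11, 7.99 and 8.33 in mWAT (3.30 ± 0.48, adjusted p = 0.00029). Vdr, the vitamin D receptor, read 9.33, 9.08 and 8.91 in sWAT and 7.04, 6.97 and 7.10 in mWAT (2.07 ± 0.28, adjusted p = 0.00015). Both are expressed in mammary epithelium, whose markers are given above, and the part of that tissue in these values was not tested. Hsd11b1, which regenerates active glucocorticoid, differed by 1.64 ± 0.18, the retinoid-binding protein gene Crabp1 by 2.42 ± 0.44 and the retinoid X receptor gene Rxrg by 1.10 ± 0.18. Aldh1a2, which makes retinoic acid, ran the other way, with 7.45, 6.48 and 6.26 in sWAT and 10.14, 10.07 and 10.66 in mWAT (-3.56 ± 0.31, adjusted p = 3.4e-06). In all, 5 of 26 genes of steroid, thyroid and retinoid handling were higher and 2 lower, of which 1 was called without any array but mWAT B.

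Neuronal genes were lower in sWAT at 6°C. Of 40 measured 30 were lower in sWAT and none was higher, the median difference was -3.02, and the list averaged 5.35 to 5.47 in the sWAT arrays and 8.40 to 9.32 in the mWAT arrays. Vip, a peptide of enteric neurons, read 3.03, 2.95 and 3.01 in sWAT and 10.59, 10.12 and 11.30 in mWAT. Gal, which encodes galanin, read 5.30, 5.93 and 5.54 in sWAT and 12.24, 12.98 and 12.70 in mWAT (-7.05 ± 0.29, adjusted p = 2.8e-09). The sWAT arrays lay within the Y-linked range, but for sWAT B in Gal, and the mWAT arrays were bright. The sensory peptide genes Calcb (-6.75 ± 0.78) and Tac1 (-5.78 ± 0.67), the peptide gene Nmu (-6.25 ± 0.71), the vesicle fusion gene Snap25 (-6.10 ± 0.59), the neuronal tubulin Tubb3 (-4.35 ± 0.42) and Npy, a peptide of sympathetic and enteric neurons (-3.40 ± 0.29), were lower as well. The noradrenaline-synthesis gene Dbh did not differ beyond the threshold, with 5.38, 5.63 and 5.57 in sWAT and 5.70, 5.97 and 5.69 in mWAT (-0.26 ± 0.14, adjusted p = 0.29), all dim and close to the Y-linked range. However, 1 of 3 probe sets of Dbh was called lower, as was their mean (-1.17, adjusted p = 0.000458). The number of lower neuronal genes was 30 or 31 without any 1 array and 27 with the 6 arrays alone.

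Growth factors and receptors of nerves were split between the depots, 5 of 24 being higher and 6 lower in sWAT. Gdnf, which supports enteric neurons, read 3.33, 4.15 and 4.37 in sWAT and 6.92, 6.72 and 7.82 in mWAT (-3.20 ± 0.39, adjusted p = 6.8e-05), and its receptor Ret differed by -2.65 ± 0.39. Higher in sWAT were Ntrk2, the receptor of brain-derived neurotrophic factor, with 11.60, 11.55 and 10.99 in sWAT and 9.34, 9.65 and 9.82 in mWAT (1.77 ± 0.22, adjusted p = 7.6e-05), and Erbb3, a neuregulin receptor of glia and epithelium (1.47 ± 0.18). Of the 14 glial genes measured 2 were higher and 2 lower, the lower ones being Fabp7 (-2.08 ± 0.35) and Cdh19 (-1.83 ± 0.31). The largest difference of this list toward sWAT was that of Sox10 (1.58). The higher glial genes numbered 1 without any array but mWAT C. Without mWAT A 2 of the 5 higher nerve growth genes were called, and without sWAT C, mWAT A or mWAT C 4 of the 6 lower ones.

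Smooth muscle and mesothelium accompanied the neuronal genes in mWAT. Of 17 genes of smooth muscle and pericytes 13 were lower in sWAT and 1 was higher. Actg2, the actin of visceral smooth muscle, read 8.23, 8.35 and 7.89 in sWAT and 13.79, 13.53 and 14.13 in mWAT (-5.66 ± 0.55, adjusted p = 8.9e-06). Cnn1 (-4.12 ± 0.43), Des (-3.90 ± 0.31) and Myh11 (-3.26 ± 0.26), proteins of the contractile apparatus and its filaments, were lower, and so was Acta2, the actin that also marks vessels (-1.36 ± 0.19). The pericyte receptor gene Pdgfrb was the one higher member (0.97 ± 0.17). Of 22 mesothelial genes 11 were lower and none was higher. Msln, which encodes mesothelin, read 4.56, 4.47 and 4.20 in sWAT and 10.31, 9.96 and 11.39 in mWAT (-6.14 ± 0.36, adjusted p = 1.2e-07), and Upk3b, another surface marker, differed by -6.89 ± 0.40. Across neurons, smooth muscle and mesothelium mWAT array C had the highest list mean and mWAT B the lowest, and every mWAT array lay above every sWAT array. At 28°C, 32 neuronal, 13 smooth muscle and 12 mesothelial genes were lower in sWAT.

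**Figure D5:**
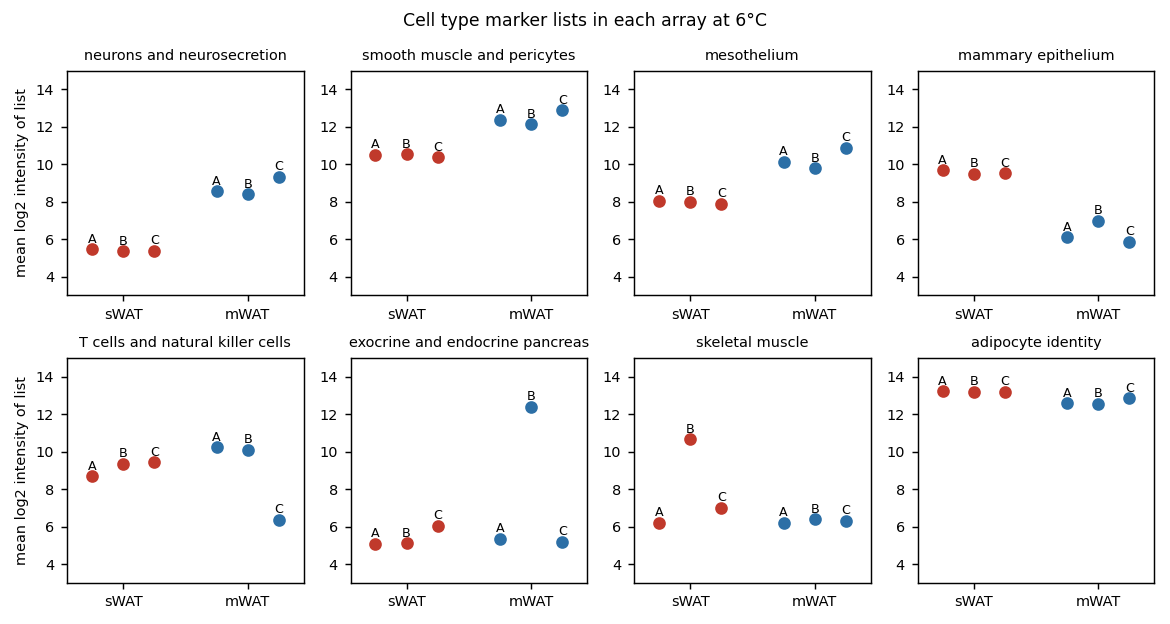
Mean log2 intensity (vertical axis) of 8 marker lists in sWAT arrays (red) and mWAT arrays (blue) A, B and C at 6°C. Neurons, smooth muscle and mesothelium are higher in all mWAT arrays and mammary epithelium in all sWAT arrays, while T cells are low in mWAT C (6.36), pancreas is high in mWAT B (12.4) and skeletal muscle in sWAT B (10.7).

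Of 29 genes of type 2 immunity, mast cells and eosinophils 7 were higher in sWAT (24.1%) and 1 was lower, with 20 positive and 9 negative differences. The same 7 were higher in sWAT at 28°C, where none was lower. Arg1, an arginase of alternatively activated macrophages that is also expressed in epithelium, read 9.49, 9.34 and 9.37 in sWAT and 5.47, 5.62 and 6.62 in mWAT (3.50 ± 0.34, adjusted p = 8.8e-06). Gata3, a factor of type 2 lymphocytes and of luminal mammary cells, differed by 3.12 ± 0.46. The other 5 were mast cell genes, namely the IgE receptor chain Ms4a2 (2.53 ± 0.28) and the granule proteases Mcpt4 (2.44 ± 0.34), Tpsb2 (2.25 ± 0.26), Cpa3 (2.22 ± 0.29) and Cma1 (2.20 ± 0.32). Cpa3 read 10.44, 9.99 and 9.93 in sWAT and 7.74, 7.71 and 8.24 in mWAT, and neither depot's arrays reached the other's. The alarmin gene Il33 was lower (-1.48 ± 0.35, adjusted p = 0.0095), a call lost without sWAT B, sWAT C or any mWAT array. In the separate list of 29 macrophage genes 2 were higher and 3 lower in sWAT, and 25 of the differences were negative. With the 6 arrays alone 1 macrophage gene was higher and 0 were lower.

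None of the 28 T cell and natural killer cell genes and none of 17 genes of MHC class II and dendritic cells was called in limma at 0.01 or at 0.05, and 0 of either list had an unadjusted p under 0.05. The second list averaged 10.1, 10.1 and 8.10 in mWAT A, B and C and 9.13 to 9.38 in the sWAT arrays. In both lists mWAT A and B lay above the sWAT arrays and mWAT C below them. The lack of calls therefore does not show that the depots were equal. Only 1 of 27 B cell genes was called. This was Igha, the heavy chain of IgA, with 10.90, 11.21 and 11.12 in sWAT and 14.02, 13.87 and 12.95 in mWAT (-2.54 ± 0.36, adjusted p = 0.00025). Lymphatic genes were lower in sWAT, 5 of 14 measured, with none higher. Prox1, the master regulator of lymphatic endothelium, read 7.27, 7.39 and 7.67 in sWAT and 10.17, 10.48 and 9.36 in mWAT (-2.56 ± 0.46, adjusted p = 0.0016), and Mmrn1 (-2.76 ± 0.32), the hyaluronan receptor gene Lyve1 (-1.34 ± 0.23), Flt4 (-1.14 ± 0.17) and the high endothelial gene Chst4 (-2.89 ± 0.46) followed. These 5 calls held without any 1 array. Blood endothelium ran the other way, with 7 of 28 higher and none lower, among them Gpihbp1, the apelin receptor Aplnr (1.55 ± 0.23), the arterial factor Sox17 (1.31 ± 0.23) and the growth factor gene Vegfa (1.09 ± 0.20), and 4 were called without sWAT A, mWAT A or mWAT B and 1 with the 6 arrays alone.

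Secreted and matrix genes closed the comparison. Serpina12, which encodes vaspin, read 9.32, 7.65 and 8.93 in sWAT and 5.84, 6.27 and 5.87 in mWAT (2.64 ± 0.33, adjusted p = 8.7e-05), and Metrnl, a secreted factor linked to cold and exercise, differed by 1.03 ± 0.17. At 28°C the difference of Metrnl was 1.01 ± 0.17 (adjusted p = 0.0011), and its call at 6°C was lost with the 6 arrays alone (adjusted p = 0.048). Rarres2, which encodes chemerin, was lower in sWAT (-0.85 ± 0.15). Nnat, a small membrane protein that also occurs in neurons, read 7.08, 9.14 and 7.17 in sWAT and 9.42, 9.35 and 10.72 in mWAT (-2.03 ± 0.59, adjusted p = 0.031). sWAT array B stood close to mWAT, and without it the difference was -2.71 (adjusted p = 0.0057). At 28°C Nnat averaged 11.88 in sWAT and 11.08 in mWAT, a difference of the opposite sign that was not called (0.80 ± 0.59, adjusted p = 0.51). Of 40 collagen and matrix genes 4 were higher and 3 lower, with the protease gene Mmp3 at 2.53 ± 0.28 and the tenascin gene Tnc at -2.42 ± 0.25. Progenitor and fibroblast genes were also split, with Fgf10 (2.34 ± 0.25) and Fap (1.91 ± 0.18) higher and Bmp4, read at 7.52, 6.63 and 7.12 in sWAT and 9.47, 8.80 and 10.02 in mWAT (-2.34 ± 0.33, adjusted p = 0.00021), lower. Of 18 liver markers 4 were higher and 1 lower, with a median of 0.05 and with 10 positive and 8 negative differences. The plasma protein gene Alb had the largest difference, with 11.17, 11.76 and 10.89 in sWAT and 6.09, 7.14 and 6.76 in mWAT (4.61 ± 0.82, adjusted p = 0.0015), and the lower one was Saa3, an acute phase gene also made by macrophages and adipocytes (-3.28 ± 0.74, adjusted p = 0.0075). Without 1 array the higher liver genes numbered 1 (sWAT B, mWAT A or mWAT B) or 2 (any other), and the call on Saa3 was lost without any 1 of the 6. The matrix genes higher were 2 without sWAT A, sWAT B, mWAT A or mWAT B and 8 without mWAT C. None of 29 cell cycle genes was called in limma at 0.01 or at 0.05, and 1 had an unadjusted p under 0.05. Of their differences 28 were negative. The list averaged 9.14, 9.03 and 7.72 in mWAT A, B and C and 8.22 to 8.32 in the sWAT arrays. With mWAT spread this widely, the lack of calls does not show equal expression. Of 26 pancreas genes no member was called (4 at an unadjusted p under 0.05, and 1 called lower without mWAT B), and of the muscle list 1, the oxygen carrier Mb (2.71 ± 0.61, adjusted p = 0.0071), a call lost without any 1 of the 6 arrays.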

How the data were processed

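RNA of brown, inguinal subcutaneous and mesenteric fat from mice at 28 or 6°C was amplified with the NuGEN Ovation system and hybridized to 18 Affymetrix mouse arrays, 3 for each depot and temperature. The authors background adjusted, summarized and normalized the raw signals between arrays in Bioconductor, and the deposited table gives 1 linear intensity for each probe set and array. Their algorithm is not given in the sources used here, and the methods and legends name different array types. Over the 6 arrays the values ran from 4.57 to 23988, with array medians of 141 to 147, and precision is limited by how many arrays there are. Arrays were grouped by title.

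Intensities were taken to log2 without further normalization or filter, 64 control probe sets were left out, and 45037 were tested in R 4.3.3 with limma 3.58.1, with 1 mean for each of 6 groups (12 residual degrees of freedom), Benjamini-Hochberg adjustment over all probe sets and a threshold of 0.01. Contrasts were sWAT minus mWAT at 6°C, the same at 28°C, and the difference of these. Genes were named through the platform table (34945 probe sets name 1 gene, 932 several and 9160 none), and 1 probe set a gene, the brightest, gave 18193 genes. The fit was tested on simulated data. Promoter windows were matched by gene symbol.

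The 48 gene lists and their members (1197 of 1327 measured) were chosen with earlier results of these data known. The text names the 10 largest differences each way among called genes with separated arrays, from each list at most 8 genes by size of difference and the 3 brightest, isoform pairs, and genes that the study followed up, and not all of these are described. Genes outside this rule, such as Acot11, Ppara, Ppargc1a, Dio2, Prdm16, Tbx15, Isl1, Krt5, Npy and Pdgfrb, were named after their values were seen. Alternatives tried were quantile normalization or median centring, a fit to the compared arrays only, a filter on dim probe sets, a variance trend with robust estimates, other thresholds, averaging a gene's probe sets, and leaving out each array. Leaving out mWAT arrays C of both temperatures was added after the data were seen. The cell, protein and PCR measurements of the study were not analysed here.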

Additional observations from a re-analysis of the deposited data

How the results depend on the processing

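No paired analysis was possible because the labels give no replicate numbers shared between depots. At 6°C the 3355 probe sets called became 1145 with the 6 arrays alone and 6146 at an adjusted p of 0.05, and 2092 to 3007 without 1 array. Leaving out dim probe sets gave 2447, of which 62.1% were higher in sWAT, against 50.3% of the 3355, and leaving out both mWAT arrays C gave 4020. At 28°C the 2631 became 931 with the 6 arrays of that temperature alone, 1371 without dim probe sets and 4494 at 0.05. For the difference between temperatures the count of 0 became 3 without dim probe sets, 5 with a variance trend, 5 at 0.05, 4 without both mWAT arrays C and 0 to 10 without 1 array. Of 143 called genes named in the text, 131 stayed past the threshold without any 1 array, 46 lost the call with the 6 arrays alone, and 0 changed direction in either. The call on Cpt2 was lost when its probe sets were averaged (0.58, adjusted p = 0.022), and that on Hoxa5 with quantile normalization (adjusted p = 0.0106) or centring (adjusted p = 0.0111). Ppargc1a, which was not called, read -0.13 to 0.47 without 1 array (-0.05 without mWAT A, -0.13 without mWAT B), and the cause was not tested. Of 96 list counts (48 lists, each direction) 42 moved by over 1.5 times with the 6 arrays alone, 1 with quantile normalization and 2 with centring, which moved the median of all probe sets from 0.04 to 0.07. The fit of 6 arrays has fewer arrays from which to estimate the spread. Detection values would be needed to size differences where the dimmer depot lies in the range of the Y-linked genes.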
